A study of Mus musculus with 16 samples.

Results

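The nuclear tRNA-Lys isodecoders, the cytosolic lysine tRNAs with the anticodons TTT and CTT (DNA letters), were measured in cultured mouse embryonic fibroblasts (MEFs) and in mouse hearts. A row was taken as a member where its name, without the species prefix, began with tRNA-Lys-TTT- or tRNA-Lys-CTT-. No measured value decided which rows were members, but the family itself was chosen with earlier results of these data known. This gave 26 of 819 rows in the MEF table and the same 26 names of 821 rows in the heart table, of which 7 carried the anticodon TTT and 19 the anticodon CTT. Isodecoders are tRNAs that share an anticodon and differ elsewhere in their sequence.

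The TTT anticodon reads the lysine codon AAA and, by wobble, AAG, whereas the CTT anticodon reads AAG. The wobble uridine of tRNA-Lys-TTT is modified through the Elongator pathway, which also acts on tRNA-Glu-TTC, tRNA-Gln-TTG and tRNA-Arg-TCT. Mitochondria decode both lysine codons with a single tRNA-Lys of their own, encoded in mitochondrial DNA, and one lysyl-tRNA synthetase gene supplies the enzyme of both compartments.

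The study corrected a pathogenic mutation in the mouse mitochondrial tRNA-Ala gene by base editing and profiled tRNAs by mim-tRNAseq, a sequencing workflow for mature tRNA. The MEFs were 3 lines named Cl_1, Cl_2 and Cl_3 and 1 line named Ctrl_1, each with 2 libraries from separate cell passages. The 8 hearts came from mice of the mutant model: 4 had AAV9-DdCBE, the double-stranded DNA cytidine deaminase-derived base editor in an adeno-associated virus vector (mouse 26 labelled 2X, mouse 25 labelled 5X, mice 17 and 18 labelled 10X), and 4 had AAV9-GFP (mice 5 and 6 labelled 5X, mice 14 and 19 labelled 3X). The titles do not explain Cl, Ctrl or the X labels, and the labels used here state no age, sex or strain background.

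There is 1 control line, so a difference between the Cl lines and Ctrl_1 cannot be told apart from one between any 2 lines, and p-values over passages measure the spread between passages. Total counts lay between 1473330 and 4375975 per MEF library and between 1540287 and 3037178 per heart library. Mitochondrial tRNAs took 2.14% to 3.74% of counts in the MEFs. In the hearts they took 38.9%, 39.2%, 59.9% and 44.5% in mice 26, 25, 17 and 18 with AAV9-DdCBE, against 37.4% to 43.3% with AAV9-GFP, so that mouse 17 stood apart. The tables hold tRNA rows only, so the labelled cell type and tissue were not checked by marker genes. In bulk samples, fewer cells of a type and less RNA per cell cannot be told apart.

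Few of the 26 rows carried most of the lysine reads. Levels are given in CPM after TMM scaling, which sets libraries to a common scale by the trimmed mean of their log ratios. A row or sum is said to pass where its adjusted p in edgeR, taken over the whole table, was below 0.05. In the MEFs 10 rows passed the filter on low counts, namely TTT-1, TTT-2, TTT-3, TTT-5, TTT-7, CTT-1, CTT-2, CTT-3, CTT-14 and CTT-16. In the hearts 8 passed, the same rows without TTT-5 and CTT-16. A further 6 rows in the MEFs and 7 in the hearts had counts below the filter, at most 3 and 10 counts in a library. The other 10 rows in the MEFs and 11 in the hearts had 0 counts in every library, and 9 of these names were at 0 in both tables. A count of 0 allowed up to 2.04 CPM (counts scaled to library size) in the shallowest MEF library and 1.95 CPM in the shallowest heart, for counting error only. TTT-6 was the TTT row at 0 in both tables, and TTT-4 had at most 1 count in any library.

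Within the TTT pool, tRNA-Lys-TTT-1 made up 89.9% to 97.3% of counts in the Cl lines and 97.9% to 98.1% in Ctrl_1, and 88.6% to 98.8% in AAV9-DdCBE hearts and 98.5% to 99.2% in AAV9-GFP hearts. By reads, without division by length, it was the highest nuclear row in all 8 hearts, in both Ctrl_1 libraries and in both Cl_3 libraries, and ranked 2 or 3 in the Cl_1 and Cl_2 libraries. Within the CTT pool, tRNA-Lys-CTT-3 made up 93.3% to 94.5% in the Cl lines and 94.7% to 95.2% in Ctrl_1. In the hearts its share was lower, at 82.7% to 84.1% with AAV9-DdCBE and 84.4% to 85.1% with AAV9-GFP, since tRNA-Lys-CTT-2 took most of the rest. The MEF and heart tables were counted separately, so these shares are set side by side without a test.

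tRNA-Lys-TTT-1, the main TTT isodecoder, fell in each Cl line relative to Ctrl_1. It stood at 48066 and 40309 CPM in Cl_1, 44902 and 42706 CPM in Cl_2 and 45172 and 46738 CPM in Cl_3, against 73254 and 67709 CPM in Ctrl_1. All 6 Cl libraries lay below both Ctrl_1 libraries, and Cl_1 overlapped both Cl_2 and Cl_3, while the Cl_2 libraries lay below those of Cl_3. The mean of the Cl lines fell by 0.66 on the log2 scale (SE 0.07, edgeR quasi-likelihood test, adjusted p = 3.05e-04), a level 1.58-fold lower than in Ctrl_1. Line by line the log2 change was -0.67 in Cl_1 (adjusted p = 0.00145), -0.69 in Cl_2 (adjusted p = 0.00119) and -0.62 in Cl_3 (adjusted p = 0.00162). The test of a difference among the Cl lines was not passed (adjusted p = 0.792).

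tRNA-Lys-TTT-2 moved the other way, and only in part of the lines. Its levels were 1139 and 1324 CPM in Cl_1, 2721 and 2940 CPM in Cl_2 and 3954 and 4921 CPM in Cl_3, against 1328 and 1116 CPM in Ctrl_1. Cl_1 overlapped Ctrl_1, while both libraries of Cl_2 and both of Cl_3 lay above it. The log2 change was 0.01 in Cl_1 (SE 0.14, adjusted p = 0.956), 1.21 in Cl_2 (SE 0.14, adjusted p = 8.05e-04) and 1.86 in Cl_3 (SE 0.15, adjusted p = 9.25e-05). The difference among the Cl lines was itself tested and passed (F test in edgeR, adjusted p = 7.55e-04). TTT-2 was the 1 of 10 tRNA-Lys rows past that test, in which 24.4% of the 201 rows tested passed. Cl_2 exceeded Cl_1 by 1.20 on the log2 scale (adjusted p = 0.00172) and Cl_3 exceeded Cl_1 by 1.85 (adjusted p = 2.90e-04), whereas Cl_3 minus Cl_2 was 0.65 (adjusted p = 0.0606). Over all rows 16.9%, 25.9% and 0.995% passed in these 3 comparisons.

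tRNA-Lys-TTT-3, another minor TTT isodecoder, had 52.1 and 77.5 CPM in Cl_1, 54.2 and 78.3 CPM in Cl_2 and 99.98 and 158 CPM in Cl_3, against 43.8 and 30.9 CPM in Ctrl_1. All 6 Cl libraries lay above both Ctrl_1 libraries. The test was passed by the average over the Cl lines (log2 change 1.14, SE 0.29, adjusted p = 0.0145) and by Cl_3 (1.79, SE 0.34, adjusted p = 0.00431). It was 0.79 in Cl_1 (adjusted p = 0.115) and 0.82 in Cl_2 (adjusted p = 0.0938). Without Ctrl_1 replicate 2 the mean change was 0.90 (adjusted p = 0.102).

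tRNA-Lys-TTT-7 had 126 and 125 CPM in Cl_1, 170 and 173 CPM in Cl_2 and 147 and 154 CPM in Cl_3, against 195 and 180 CPM in Ctrl_1. Every Cl library lay below both Ctrl_1 libraries, Cl_2 most narrowly. The mean of the Cl lines fell by 0.34 on the log2 scale (SE 0.11, adjusted p = 0.0383), and the change in Cl_1 was -0.58 (adjusted p = 0.0164). Of 7 alternative settings, 5 lost the call for the mean and 2 kept it. The call for the mean was lost on library totals (-0.24, adjusted p = 0.122) and in 6 of the 8 fits without 1 library. tRNA-Lys-TTT-5, at 3.88 to 14.1 CPM in the Cl lines and 9.81 to 13.8 CPM in Ctrl_1, had a log2 change of -0.32 (adjusted p = 0.482).

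**Figure D1:**
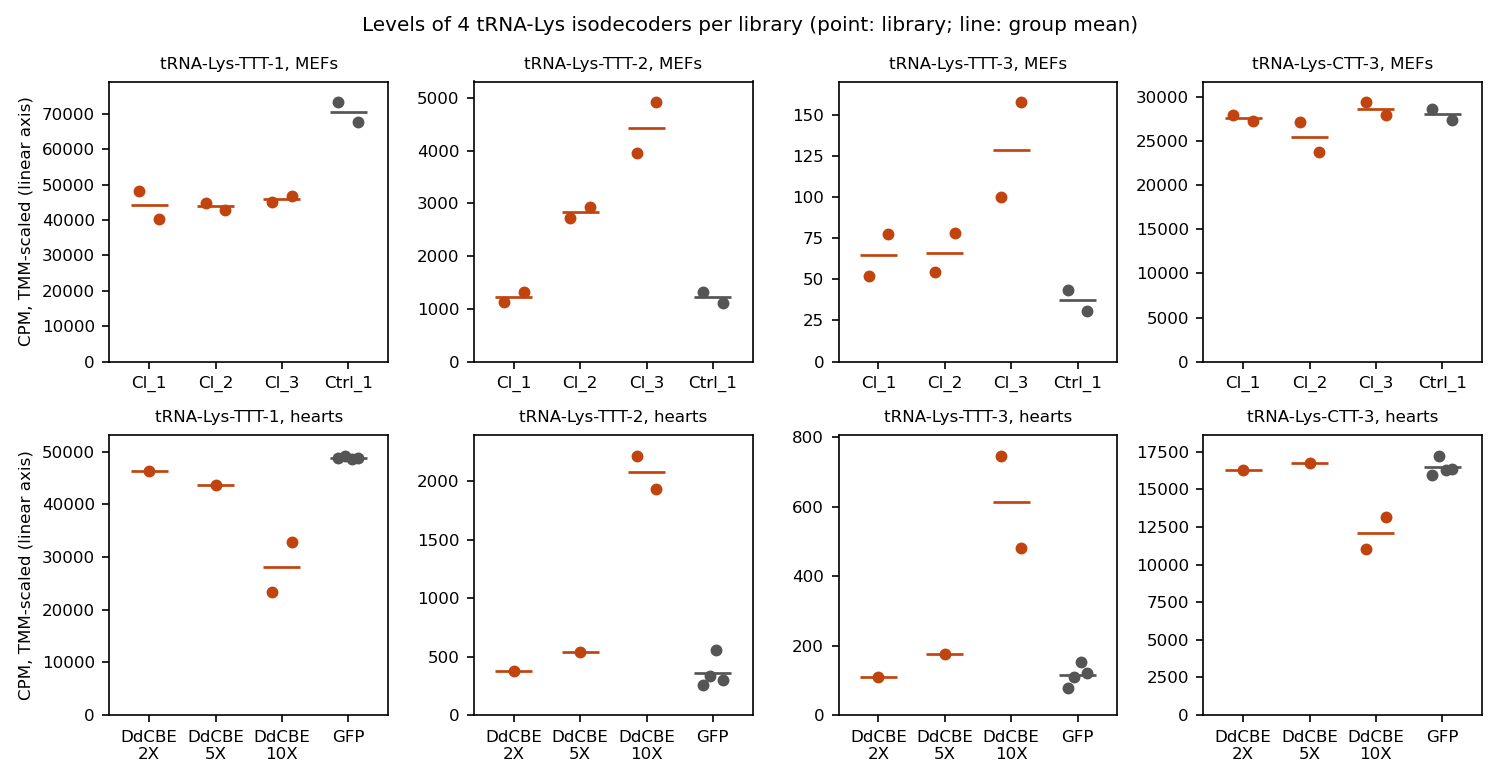
Level of 4 tRNA-Lys rows in every library (vertical axes, CPM after TMM scaling, linear from 0), for MEF lines Cl_1, Cl_2, Cl_3 and Ctrl_1 (top) and for AAV9-DdCBE hearts labelled 2X, 5X and 10X and AAV9-GFP hearts (bottom). Points are libraries and lines are group means. TTT-1 lies at 40309 to 48066 CPM in the Cl libraries and at 67709 and 73254 CPM in Ctrl_1, while TTT-2 and TTT-3 are highest in Cl_3 and in the 10X hearts.

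None of the 5 tested CTT rows passed for the Cl mean, either in edgeR, where 0 of them had an unadjusted p under 0.05, or in DESeq2. tRNA-Lys-CTT-3 had 28033 and 27319 CPM in Cl_1, 27219 and 23836 CPM in Cl_2 and 29445 and 27944 CPM in Cl_3, against 28673 and 27453 CPM in Ctrl_1. The Ctrl_1 libraries lay inside the range of the Cl libraries, and the log2 change of the mean was -0.04 (SE 0.06, adjusted p = 0.618), or 0.06 when scaled to library totals. tRNA-Lys-CTT-2 had 1722 and 1931 CPM in Cl_1, 1690 and 1401 CPM in Cl_2 and 1868 and 1596 CPM in Cl_3, against 1424 and 1508 CPM in Ctrl_1 (log2 change 0.21, SE 0.11, adjusted p = 0.145). tRNA-Lys-CTT-1, CTT-14 and CTT-16 were near the detection limit. CTT-1 had 7.44 and 12.9 CPM in Cl_1, 10.1 and 8.55 CPM in Cl_2 and 11.6 and 8.99 CPM in Cl_3, against 6.86 and 10.9 CPM in Ctrl_1. CTT-14 ranged from 4.31 to 9.75 CPM in the Cl lines and CTT-16 from 3.57 to 5.92 CPM, with Ctrl_1 inside both ranges.

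Among the MEF rows, 4 of 10 tested members passed for the Cl mean, 2 higher (TTT-2 and TTT-3) and 2 lower (TTT-1 and TTT-7), where 48.3% of all 201 rows passed (22.9% higher and 25.4% lower). The share among the members was therefore no larger than in the table. Their median log2 change was -0.04, and that of all rows tested was -0.00. Against Ctrl_1, 2 members passed in Cl_1 (33.8% of all rows passed), 2 in Cl_2 (46.3%) and 3 in Cl_3 (50.7%). On library totals the split of calls over the whole table was 61 higher and 35 lower, against 46 higher and 51 lower under TMM scaling. When the libraries of each line were summed and 3 lines were set against 1, TTT-1 alone of the members passed (log2 change -0.64, adjusted p = 0.0271), and TTT-2 and TTT-3 had changes of 1.21 (adjusted p = 0.262) and 1.22 (adjusted p = 0.228).

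The anticodon totals, which do not depend on how reads were split among rows of 1 anticodon, were tested in a fit of 70 anticodon sums. In that fit 42.9% of sums passed when the Cl lines were averaged. The tRNA-Lys-TTT total was lower in the Cl lines (log2 change -0.46, SE 0.10, adjusted p = 0.00901), and the tRNA-Lys-CTT total changed by 0.11 (SE 0.07, adjusted p = 0.228). By line, the TTT total changed by -0.57 in Cl_1 (adjusted p = 0.0104), by -0.49 in Cl_2 (adjusted p = 0.0205) and by -0.32 in Cl_3 (adjusted p = 0.0813), where 24.3%, 35.7% and 25.7% of sums passed. The fall of the TTT total missed the threshold without Ctrl_1 replicate 1 (-0.40, adjusted p = 0.104).

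The balance of the 2 anticodons was then taken within each library, as the TTT sum over the CTT sum, which needs no scaling between libraries. The ratio was 1.66 and 1.43 in Cl_1, 1.65 and 1.82 in Cl_2 and 1.58 and 1.76 in Cl_3, against 2.48 and 2.38 in Ctrl_1. All Cl libraries lay below Ctrl_1, and the Cl lines overlapped. On the log2 scale the Cl libraries averaged 0.72 ± 0.12 (SD, n = 6) and Ctrl_1 averaged 1.28 ± 0.04 (SD, n = 2), a difference of -0.57 (exact two-sided permutation test over libraries, p = 0.0357, the smallest that 28 splits allow, and 0.0476 adjusted over 4 such tests). With the lines as units, 3 against 1, the smallest possible exact p is 0.25. The tRNA-Lys share of nuclear tRNA counts was 8.02% ± 0.56 in the Cl libraries (SD, n = 6) and 9.98% ± 0.29 in Ctrl_1 (SD, n = 2), with the same exact permutation p of 0.0357. TTT rows made up 4.36% to 5.63% of nuclear counts in the Cl libraries and 6.88% to 7.26% in Ctrl_1, while CTT rows made up 2.68% to 3.31% and 2.89% to 2.92%.

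**Figure D2:**
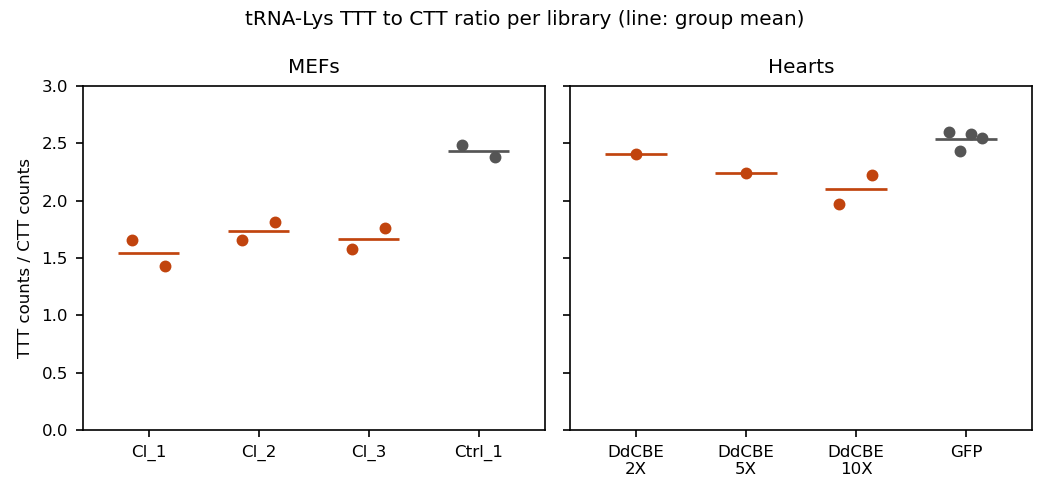
Ratio of tRNA-Lys-TTT to tRNA-Lys-CTT counts in each library (vertical axis, linear from 0), for the MEF lines (left) and the hearts (right). Points are libraries and lines are group means. The Cl libraries lie at 1.43 to 1.82 against 2.38 and 2.48 in Ctrl_1, and the AAV9-DdCBE hearts at 1.97 to 2.41 against 2.44 to 2.60 in AAV9-GFP hearts.

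In the hearts the same ratio was also lower with AAV9-DdCBE than with AAV9-GFP, by less. The X labels differed between these groups, with only 5X in both, so the editor and the label cannot be fully told apart. It was 2.41 in mouse 26, 2.24 in mouse 25, 1.97 in mouse 17 and 2.23 in mouse 18 with AAV9-DdCBE, against 2.60, 2.44, 2.58 and 2.55 in mice 5, 6, 14 and 19 with AAV9-GFP. The groups did not overlap, and mouse 26 (2X) lay next to the lowest AAV9-GFP heart. The log2 ratio averaged 1.14 ± 0.12 with AAV9-DdCBE and 1.35 ± 0.04 with AAV9-GFP (SD, n = 4 each), a difference of -0.20 (exact two-sided permutation test, p = 0.0286, the smallest that 70 splits allow, adjusted p = 0.0476). Without mouse 17 the difference was -0.15, with the same adjusted p, again from the smallest p that the splits allow. The adjusted p rose to 0.0762 when any 1 AAV9-GFP heart was left out. Taken over the main isodecoders alone, as TTT-1 over CTT-3, the log2 difference was -0.62 in the MEFs and -0.25 in the hearts, with the same adjusted p. That value too comes from the smallest p possible, so the equal p-values are no measure of stability. In the edgeR fit of anticodon sums, which scales between libraries, neither total passed. The TTT total changed by -0.19 in AAV9-DdCBE hearts (SE 0.13, adjusted p = 0.806) and the CTT total by 0.01 (SE 0.07, adjusted p = 0.975), and 0 of 70 sums passed in that comparison, with 3 at an unadjusted p under 0.05. The tRNA-Lys share of nuclear counts was 10.4% ± 0.81 with AAV9-DdCBE and 11.2% ± 0.57 with AAV9-GFP (SD, n = 4 each, exact permutation p = 0.229).

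Among the tRNA-Lys rows of the hearts, TTT-2 and TTT-3 stood out in the 10X mice. tRNA-Lys-TTT-2 had 373 CPM in mouse 26 (2X), 541 CPM in mouse 25 (5X) and 2219 and 1935 CPM in mice 17 and 18 (10X), against 261, 331, 556 and 297 CPM in mice 5, 6, 14 and 19 with AAV9-GFP. tRNA-Lys-TTT-3 had 109 CPM in mouse 26, 175 CPM in mouse 25 and 746 and 482 CPM in mice 17 and 18, against 78.2, 110, 153 and 121 CPM in those AAV9-GFP mice. For both rows the 10X hearts lay above all others, and mouse 26 lay inside the AAV9-GFP range. Such rises were shared with other tRNAs. Of 158 nuclear rows tested in 10X against AAV9-GFP, 41 were called higher. By log2 change TTT-2 ranked 19 and TTT-3 ranked 22 from the highest.

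With all 4 AAV9-DdCBE hearts as 1 group, edgeR passed 0 of 8 tRNA-Lys rows, and 0% of all 180 rows tested. The log2 change was 1.81 for TTT-2 (SE 0.56, adjusted p = 0.0970) and 1.71 for TTT-3 (SE 0.57, adjusted p = 0.115). At an unadjusted p under 0.05 there were 3 of the 8 members and 35 of the 180 rows, and DESeq2 passed 27 of the 180 rows and 2 members, TTT-2 and TTT-3. TTT-1 had a log2 change of -0.42 (SE 0.22, adjusted p = 0.320).

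The comparison of 10X hearts with AAV9-GFP was chosen with earlier results of these data known. No AAV9-GFP heart was labelled 10X, so the editor and the X label cannot be told apart in it. With the 10X hearts set against AAV9-GFP, TTT-2 rose 5.76-fold (log2 change 2.53, SE 0.29, edgeR adjusted p = 1.45e-04) and TTT-3 rose 5.33-fold (2.41, SE 0.29, adjusted p = 2.05e-04). Both passed under every scaling, filter and tool tried and without any 1 heart, with log2 changes of at least 2.42 for TTT-2 and 2.06 for TTT-3. The 10X hearts also exceeded the 5X and 2X hearts, by 2.21 for TTT-2 (adjusted p = 0.00222) and 2.15 for TTT-3 (adjusted p = 0.00274), in a comparison where 31.1% of rows passed and TTT-2 and TTT-3 were the 2 of 8 members that did. Without mouse 17 the TTT-2 difference was 2.11 (adjusted p = 0.0508). In the 5X heart the change against AAV9-GFP was 0.59 for TTT-2 and 0.60 for TTT-3 (adjusted p = 0.869 for both), and in the 2X heart 0.05 and -0.08 (adjusted p = 0.998 for both). Each of these 2 is a single heart whose spread is taken from the other groups.

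tRNA-Lys-TTT-1 had 46263 CPM in mouse 26, 43738 CPM in mouse 25 and 23283 and 32894 CPM in mice 17 and 18, against 48707, 49213, 48635 and 48792 CPM in AAV9-GFP mice 5, 6, 14 and 19. Under TMM scaling the AAV9-GFP values spanned a narrow range, and all 4 AAV9-DdCBE hearts lay below it. As a share of nuclear counts the groups were less apart for the whole TTT pool. It took 7.55%, 7.79%, 6.19% and 7.21% in mice 26, 25, 17 and 18, against 7.69% to 8.66% with AAV9-GFP, so mouse 25 lay inside that range. In the 10X hearts the log2 change of TTT-1 was -0.80 (SE 0.21, adjusted p = 0.0167). Scaled to nuclear tRNA totals it was -0.38 (adjusted p = 0.172), without a filter -0.58 (adjusted p = 0.0577), and it missed the threshold in 5 of the 8 fits without 1 heart.

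tRNA-Lys-CTT-3 had 16267 CPM in mouse 26, 16719 CPM in mouse 25 and 11027 and 13131 CPM in mice 17 and 18, against 15962, 17235, 16264 and 16358 CPM in mice 5, 6, 14 and 19. Both 10X hearts lay below the AAV9-GFP range, and the other 2 lay inside it. The log2 change in 10X hearts was -0.45 (SE 0.16, adjusted p = 0.0447), and -0.02 when scaled to nuclear totals (adjusted p = 0.919). The call was lost under all 5 alternatives in scaling, filter and tool (adjusted p from 0.112 to 0.919). tRNA-Lys-CTT-2 had 3152 CPM in mouse 26, 3136 CPM in mouse 25 and 2284 and 2729 CPM in mice 17 and 18, against 2914, 3131, 2817 and 2943 CPM in the AAV9-GFP mice, with a log2 change of -0.24 (adjusted p = 0.179), or 0.19 on nuclear totals.

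The scaling moved these values together. The median log2 change of all 180 rows in the 10X comparison was -0.23 under TMM, -0.13 on library totals and 0.21 on nuclear tRNA totals. Relative to that median, TTT-1 stood at -0.57 under TMM, -0.55 on library totals and -0.59 on nuclear totals, CTT-3 at -0.22, -0.21 and -0.23, and TTT-2 at 2.76, 2.73 and 2.74. A change of scaling shifts all rows by about the same amount, so these differences from the median restate the levels on a common footing and are no test of stability. The mitochondrial share of counts was 59.9% in mouse 17 and 44.5% in mouse 18, and its part in these values was not tested.

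The low rows were tRNA-Lys-TTT-7, CTT-1 and CTT-14. TTT-7 had 56.0 CPM in mouse 26, 46.8 CPM in mouse 25 and 22.3 and 38.8 CPM in mice 17 and 18, against 48.6, 48.8, 56.1 and 58.3 CPM in mice 5, 6, 14 and 19. Its log2 change in 10X hearts was -0.80 (SE 0.29, adjusted p = 0.0462), and -0.39 on nuclear totals (adjusted p = 0.312). All 5 alternatives in scaling, filter and tool lost this call (adjusted p from 0.103 to 0.312). CTT-14 had 4.63 CPM in mouse 26, 7.99 CPM in mouse 25 and 2.79 and 2.56 CPM in mice 17 and 18, against 11.8, 7.47, 12.9 and 7.64 CPM in mice 5, 6, 14 and 19, which rests on 6 to 26 counts a heart. The 10X change of CTT-14 was -1.84 (SE 0.40, adjusted p = 0.00635), the lowest of the 180 rows, and without mouse 17 it missed the threshold (-1.91, adjusted p = 0.0634). CTT-1 had 12.2 CPM in mouse 26, 9.70 CPM in mouse 25 and 14.3 and 16.2 CPM in mice 17 and 18, against 19.1, 15.7, 14.2 and 15.3 CPM in mice 5, 6, 14 and 19 (10X log2 change -0.08, adjusted p = 0.798).

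Counted over the heart rows, 6 of 8 tested members passed in the 10X comparison, 2 higher and 4 lower, where 51.7% of all 180 rows passed (23.9% higher and 27.8% lower). The count of 6 was that of the TMM fit, and the 5 alternatives in scaling, filter and tool passed 3 to 4 members. On nuclear tRNA totals 3 members passed, TTT-2 and TTT-3 higher and CTT-14 lower. The calls over the whole table were 46.2% higher under TMM and 69.3% to 90.9% higher under the other settings. The members' median log2 change was -0.34 under TMM, and that of the 158 nuclear rows tested was -0.31. No tRNA-Lys row passed in the 5X heart alone (0.556% of all rows passed) or in the 2X heart alone (0%).

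**Figure D3:**
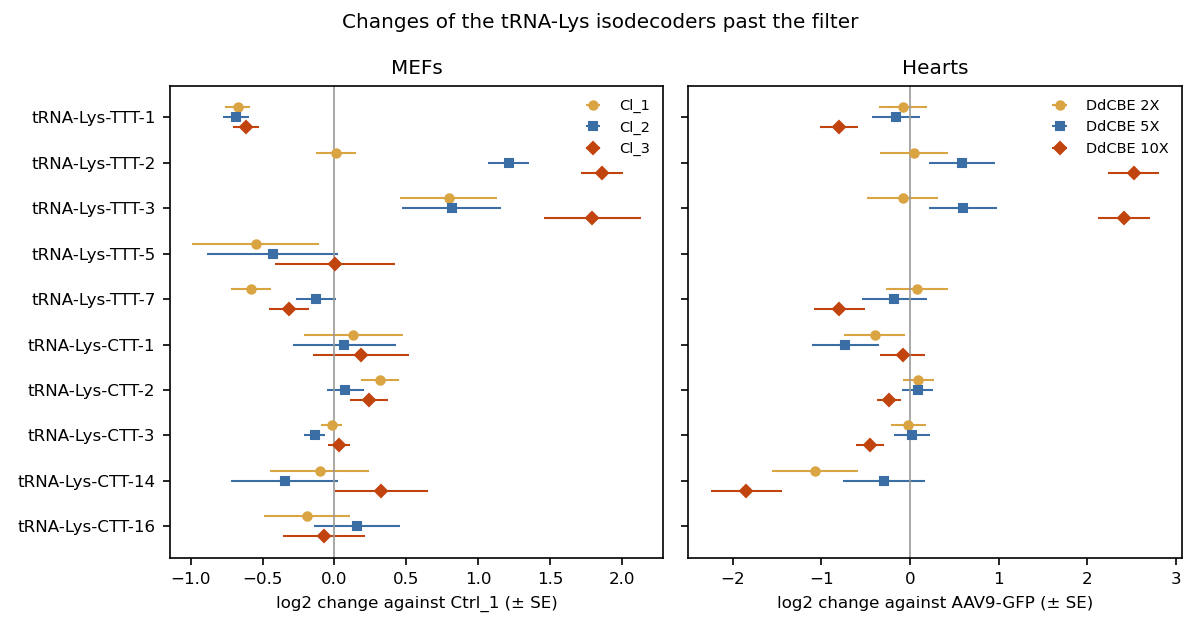
Log2 change of each tRNA-Lys row past the filter (horizontal axes, bars ± SE of the edgeR fit), for Cl_1, Cl_2 and Cl_3 against Ctrl_1 (left) and for AAV9-DdCBE hearts labelled 2X, 5X and 10X against AAV9-GFP (right). TTT-1 lies between -0.69 and -0.62 in all 3 lines, whereas TTT-2 spreads between 0.01 in Cl_1 and 1.86 in Cl_3 and reaches 2.53 in the 10X hearts.

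The make-up of the TTT pool differed between samples accordingly. TTT-2 and TTT-3 together made up 2.41% and 3.35% of TTT counts in Cl_1, 5.80% and 6.58% in Cl_2 and 8.21% and 9.77% in Cl_3, against 1.83% and 1.66% in Ctrl_1. In the hearts they made up 1.03% in mouse 26, 1.61% in mouse 25 and 11.3% and 6.84% in mice 17 and 18, against 0.690%, 0.887%, 1.44% and 0.847% in mice 5, 6, 14 and 19. The Cl_3 libraries and the 10X hearts thus reached shares of the same order, given here as a description without a test. By reads, not divided by length, TTT-2 held 17.1 to 50.2 times the counts of TTT-3 in the Cl lines and 30.3 to 36.2 times in Ctrl_1, whereas it held 2.97 to 4.02 times in AAV9-DdCBE hearts and 2.46 to 3.62 times in AAV9-GFP hearts. How reads that match several near-identical isodecoders were assigned is not given in the sources used here, so the split among rows of 1 anticodon is uncertain in that respect.

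**Figure D4:**
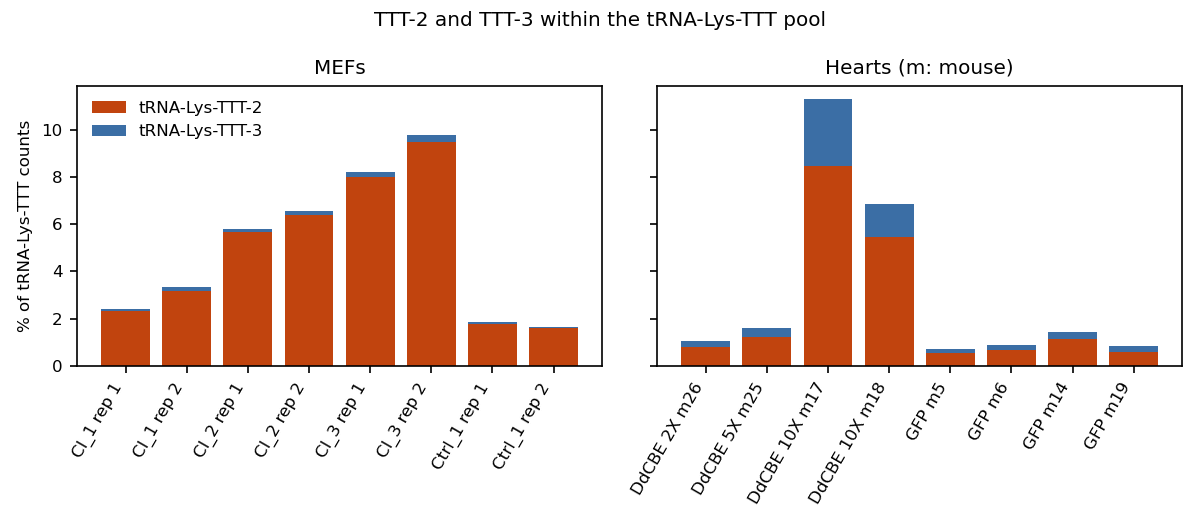
Share of tRNA-Lys-TTT counts (vertical axis, %) taken by TTT-2 (lower part of each bar) and TTT-3 (upper part) in every MEF library (left) and every heart (right, m is the mouse number). The summed share is 8.21% and 9.77% in Cl_3 and 11.3% and 6.84% in the 10X hearts, against 1.83% and 1.66% in Ctrl_1 and at most 1.44% in AAV9-GFP hearts.

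The mitochondrial tRNA-Lys was measured as a separate row. It had 1622 to 2031 CPM in the Cl libraries and 1458 and 2755 CPM in Ctrl_1, and its log2 change was -0.22 (SE 0.21, adjusted p = 0.437). In the hearts it had 16106 to 38600 CPM with AAV9-DdCBE and 15811 to 30663 CPM with AAV9-GFP (log2 change -0.02, SE 0.29, adjusted p = 0.958). In the 10X hearts alone the change was 0.26 (SE 0.32, adjusted p = 0.500). The groups overlapped in both tables.

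The tRNAs that share the wobble uridine pathway with tRNA-Lys-TTT were counted in the same fits. Of 11 tested rows of tRNA-Glu-TTC, tRNA-Gln-TTG and tRNA-Arg-TCT, 3 were higher and 3 lower in the mean of the Cl lines, with a median log2 change of -0.11. Over all 201 rows 48.3% passed (22.9% higher and 25.4% lower), so these counts lay near those of the table. The higher ones were tRNA-Arg-TCT-4 (log2 change 2.67, at a mean of 62.2 CPM), tRNA-Arg-TCT-2 (0.88) and tRNA-Glu-TTC-3 (0.39), and the lower ones were tRNA-Glu-TTC-1 (-0.22), tRNA-Glu-TTC-2 (-0.36) and tRNA-Gln-TTG-1 (-0.25). In 10X hearts 2 of the 11 were higher, tRNA-Gln-TTG-2 (3.05) and tRNA-Arg-TCT-5 (1.29), and 5 were lower, with a median of -0.46. Over all 180 rows 51.7% passed there (23.9% higher and 27.8% lower). The median log2 change was -0.23 over all rows and -0.31 over the 158 nuclear rows, to which the 11 belong. Lower calls over the table numbered 50 under TMM and 6 on nuclear tRNA totals. The lower ones ranged from -1.01 for tRNA-Glu-TTC-2 to -0.46 for tRNA-Arg-TCT-3. With all 4 AAV9-DdCBE hearts as 1 group edgeR passed 0 of the 11, with 1 at an unadjusted p under 0.05.

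The rows most like the main members were found by the root mean square difference of log2 CPM over the 8 libraries of a table, each row centred on its own mean, among 200 other rows in the MEFs and 179 in the hearts. For tRNA-Lys-TTT-1 in the MEFs they were tRNA-His-GTG-2 (0.10), then tRNA-Val-TAC-1 (0.14) and tRNA-Arg-ACG-1 (0.14), where the median over all rows was 0.40. In the hearts they were tRNA-Arg-CCG-3, tRNA-Trp-CCA-2 and tRNA-Val-TAC-1 (0.05 each, median 0.41), and tRNA-Val-TAC-1 was thus close to TTT-1 in both tables. For tRNA-Lys-CTT-3 they were tRNA-Arg-CCG-1 (0.06), tRNA-Ser-TGA-2 (0.10) and tRNA-Phe-GAA-3 (0.10) in the MEFs, with a median of 0.26; CTT-3 itself varied little there, so its nearest rows were those that also varied little. In the hearts they were tRNA-Ile-AAT-1 (0.06), tRNA-iMet-CAT-1 (0.06) and tRNA-His-GTG-2 (0.07), with a median of 0.33. These are descriptions over libraries that share scaling and depth.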

How the data were processed

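RNA was kept mildly acidic during extraction to preserve charging, then treated by oxidation and beta-elimination and read by mim-tRNAseq, per the labels' protocols; no counts by charged end were used. The authors deposited raw read counts per tRNA row, 1 table for MEFs and 1 for hearts, and these were not normalized. The submitters' processing notes name cutadapt 3.5 and mm39. Which aligner and counter made the tables is not given in the sources used here. Members and gene lists were chosen with earlier results of these data known.

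Each whole table was filtered (filterByExpr, minimum count 10, minimum total 15), scaled by TMM and fitted by the quasi-likelihood test of edgeR 4.0.16 under R 4.3.3. P-values were adjusted over all rows by Benjamini-Hochberg, with 0.05 as threshold. Anticodon totals were summed over rows and fitted likewise, without tRX rows. CPM values are TMM-scaled, and shares, ratios and ranks are of reads. For ratios and shares, libraries were permuted exactly, two-sided. The fits were tested on simulated counts. All tRNA-Lys rows past the filter are named. Per-library values are given for the 3 TTT and 3 CTT rows with the highest mean CPM in a table and for rows past the threshold in the Cl mean (average of the 3 lines), in AAV9-DdCBE or in 10X hearts against AAV9-GFP. The mitochondrial tRNA-Lys and 3 nearest patterns are also named.

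Alternatives were DESeq2 size factors, library totals, nuclear tRNA totals, DESeq2 1.42.0, no filter, a replicate block, lines as units and leaving out each library. No pair of libraries within a group matched within counting noise.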

Additional observations from a re-analysis of the deposited data

Results flagged for a closer look

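tRNA-Lys-TTT-2 differed among the 3 Cl lines, by an F test in edgeR on the differences between those lines (adjusted p = 7.55e-04). The fit held all 8 MEF libraries. The log2 change against Ctrl_1 was 0.01 in Cl_1, 1.21 in Cl_2 and 1.86 in Cl_3. Each line had 2 passages, so the spread behind this test is that between passages.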

How the results depend on the processing

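The fall of tRNA-Lys-TTT-1 in the mean of the Cl lines passed under all 7 alternatives (log2 change -0.66 to -0.56) and without any 1 library (-0.71 to -0.60). Differences between replicates 1 and 2 correlated between lines at 0.0859 to 0.247, all positive. This does not settle whether passage numbers pair the libraries. With a replicate block the count of members past the threshold stayed at 4, and the CTT total of Cl_3 passed (0.23, adjusted p = 0.0338). The MEF ratio (-0.57) and share (-1.96) then had an adjusted p of 0.0833 in the exact test, above the threshold. Splits within replicates allow no smaller p, so this test could not pass for these measures. With lines as units their p was 0.25 for the same -0.57 and -1.96, from fewer units, and once each line's libraries were summed 1 member passed in the Cl mean. The TTT total in that setting, added after seeing the data, was -0.46 (adjusted p = 2.70e-05). Without 1 library the MEF ratio difference was -0.60 to -0.52 and the share difference -2.16 to -1.75. Without a Cl library their adjusted p in the exact test was 0.0635, the smallest that the splits then allow. Without a Ctrl_1 library 1 control is left, and the exact p cannot reach the threshold. The loss of these calls was thus fixed by the number of splits. The heart ratio difference without 1 heart was -0.25 to -0.15.

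Counts of members past the threshold without 1 library ranged from 2 to 4 in the mean of the Cl lines (2 without Ctrl_1 replicate 2), from 1 to 3 in Cl_1 (1 without Ctrl_1 replicate 1), from 0 to 2 in AAV9-DdCBE (2 without mouse 25 or 26), from 3 to 7 in 10X (3 without mouse 5, 6, 19, 17, 25 or 26) and from 1 to 6 in 10X against 5X and 2X (1 without mouse 17, 6 without mouse 18). Without a filter, 2 passed among the Cl lines and 3 in 10X. On nuclear totals 3 passed in 10X, and with DESeq2 2 passed in AAV9-DdCBE, where 27 of all rows passed with DESeq2 and 14 on library totals, against 0 in edgeR with TMM. The TTT total without 1 library ranged from -0.51 to -0.40 in the mean of the Cl lines, -0.71 to -0.44 in Cl_1, -0.56 to -0.44 in Cl_2 (5 of 8 fits missed the threshold) and -0.37 to -0.26 in Cl_3. In Cl_3 it passed on library totals (-0.37), nuclear totals (-0.38) and DESeq2 (-0.35).

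The values below changed sign. None of these results passed under any setting run, except CTT-2 in 10X without mouse 18 (-0.37, adjusted p = 0.0420). The CTT total was 0.00236 in Cl_2 with DESeq2 size factors and 0.00243 with DESeq2, with -0.13 to 0.11 without 1 library. It was -0.091 in AAV9-DdCBE on library totals, with -0.046 to 0.055 without 1 heart, and 0.010 in 10X on nuclear totals. In the mean of the Cl lines, on library and nuclear totals, CTT-14 was 0.055 and 0.039, CTT-16 0.062 and 0.046, and CTT-3 0.061 and 0.045. Without 1 library CTT-1 was -0.14 to 0.52, CTT-14 -0.18 to 0.11 and CTT-16 -0.14 to 0.073, and TTT-2 in Cl_1 was -0.11 to 0.14. In AAV9-DdCBE CTT-2 was 0.0355 with DESeq2 size factors, 0.0287 on library totals, 0.16 on nuclear totals, 0.0352 with DESeq2 and 0.0435 with no filter, with -0.085 to 0.049 without 1 heart, and CTT-3 was 0.014 on nuclear totals. In 10X CTT-1 was 0.11, 0.014, 0.35, 0.11 and 0.14 under those 5 settings, with -0.17 to 0.18 without 1 heart, and CTT-2 was 0.19 on nuclear totals. The causes were not tested.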
